A study of Mus musculus with 6 samples.

Results

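The genes described here are 7 signals of cardiac trabeculation: the ligand Nrg1, the receptors Erbb2, Erbb3 and Erbb4, the ligand Efnb2 with its receptor Ephb4, and Fkbp1a. They were taken as every probe set that the array's platform annotation ties to one of these symbols and to no other gene, which gave 15 probe sets for 7 genes, out of 34958 probe sets for 18194 genes. Ventricles of skNAC knockout embryos at stage E11.5 (3 arrays, titled 1, 26 and 66) were set against those of wild-type littermates of the same stage (3 arrays, titled 13, 23 and 57), all on the 129SvEv background. skNAC is the long muscle form of the Naca gene, and the labels place the death of the knockout embryos, with heart defects, by E12.5. The sources used here do not give the allele's structure, the litters, or whether an array carried 1 heart or a pool, so p-values measure only the spread between these samples, which may be technical. Signals are MAS5 probe set intensities on a linear scale from 1-colour Affymetrix mouse arrays, each given amplified and biotin-labelled RNA made from 500 ng of total RNA.

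Trabeculae are the muscular ridges that grow inward from the wall of the embryonic ventricle. Their growth needs signals from the endocardium, the inner lining, to the myocardium: neuregulin 1 binds the receptor kinases ErbB3 and ErbB4 on neighbouring cells, and these pair with ErbB2, which has no ligand of its own. Mouse embryos lacking Nrg1, Erbb2 or Erbb4 form few or no trabeculae, and so do embryos lacking the membrane-bound ligand ephrin-B2 or its receptor EphB4. Fkbp1a encodes FKBP12, a small prolyl isomerase that binds calcium release channels and type I receptors of the TGF-beta family, and mice without it have overgrown trabeculae.

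None of the 7 genes passed the test for a difference between knockout and wild-type ventricles after adjustment over all probe sets. Efnb2 and Fkbp1a had the smallest errors on their brightest probe sets, whose 95% intervals ran from -20.2% to 14.8% for Efnb2 and from -8.27% to 18.2% for Fkbp1a. Their other kept probe sets allowed wider changes, from -29.4% to 32.2% for the second of Efnb2, up to 24.5% for Fkbp1a 1456196_x_at and from -45.5% to 35.8% for the dimmest of Fkbp1a. Nrg1 and Erbb4 had dim signals with lower means in knockout ventricles, Erbb3 was low in a pair of the 3 knockout arrays, and Erbb2 and Ephb4 had nearly equal means.

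Differences are knockout minus wild-type on the log2(signal + 16) scale with their standard error (SE), from limma with Benjamini-Hochberg adjustment, and they understate the change of dim genes. A probe set was kept when its mean signal exceeded 100.3, the median of all probe sets other than array controls. This kept 10 of the 15 member probe sets, from 5 of the 7 genes. Nrg1, Erbb4, 1 probe set of Erbb3 and 2 of Efnb2 lay below it, and their values come from a fit of all 45037 probe sets with no such limit. Of the 10 kept, 0 passed an adjusted p of 0.05, where 0% of the 22518 kept probe sets passed. At an unadjusted p under 0.05, 1091 kept probe sets passed over the whole table, and no kept member did. The smallest adjusted p of a kept member was 0.976. The knockout arrays lay wholly to one side of the wild-type arrays in 1 of the 10, a probe set of Fkbp1a, against 10.5% of all kept probe sets.

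**Figure D1:**
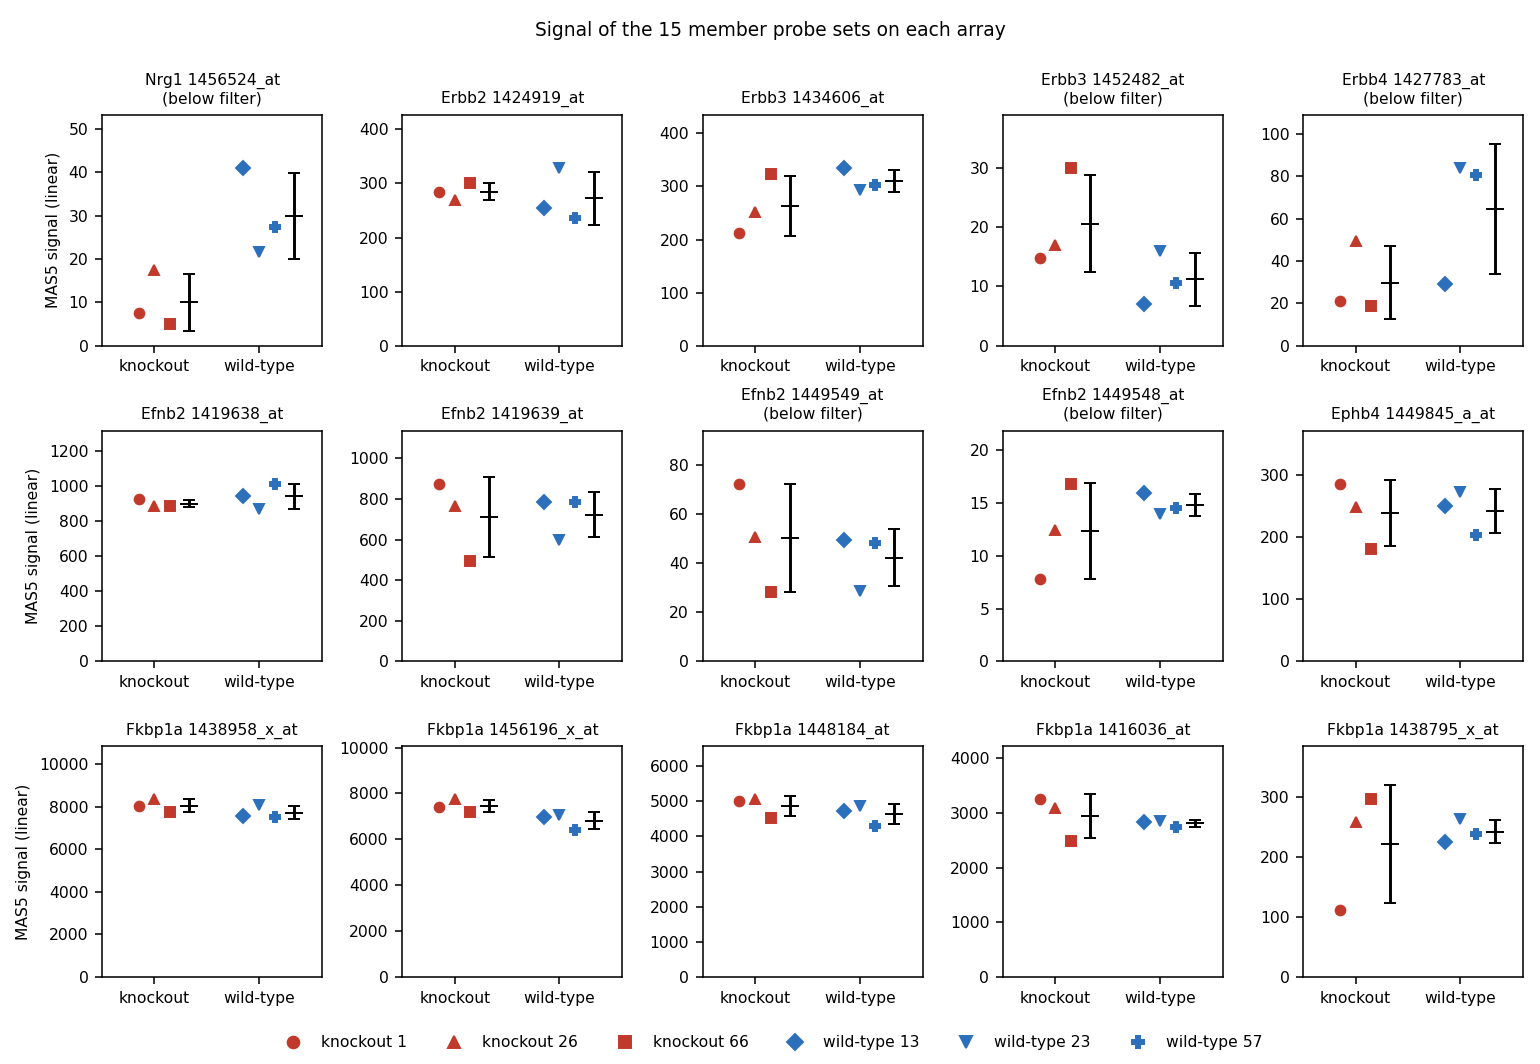
MAS5 signal (linear, vertical axis from 0, scaled separately in each panel) of the 15 probe sets on the 3 knockout and 3 wild-type arrays. Each point is an array and black bars are the mean and SD of 3 arrays. The Nrg1 points of knockout, 5.0 to 17.4, lie below those of wild-type, 21.7 to 41.0, and the Erbb2 and Ephb4 points overlap between genotypes.

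The targeted gene gave no check of the labels. The brighter Naca probe set read 9047, 9034 and 8595 in knockout 1, 26 and 66, against 8385, 8566 and 8286 in wild-type 13, 23 and 57 (0.08 ± 0.08, SE), and the sources used here do not say whether a probe set reads the deleted part. Knockout 66 stood apart on the first principal component, at a score of 57.7 where the other arrays had -25.0 to 4.82. The ratio of 3' to 5' signal, a measure of RNA quality, was higher in knockout than in wild-type arrays for both actin (2.49 to 2.57 against 2.05 to 2.24) and Gapdh (1.28 to 1.45 against 1.12 to 1.20). The part of RNA quality in the values below was not tested. All 12 cardiomyocyte markers and 11 of 12 endothelial and endocardial markers were above the signal limit. So were 9 of 10 epicardial, 6 of 8 atrial and all 6 erythroid markers in the table, while 6 of the 7 liver markers were below it. Of the atrial markers above the limit, Myl4 and Nppa also stand in the cardiomyocyte list, and the atrial markers Sln and Gja5 were below it. Summed erythroid signal ran from 54661 to 71198 in knockout and from 49370 to 58636 in wild-type, and summed epicardial signal from 5414 to 6652 in knockout and from 5252 to 5807 in wild-type. The epicardial keratin gene Krt8, which is part of that epicardial sum, was higher on every knockout array than on any wild-type array (0.80 ± 0.18) without passing the adjustment. The 9 kept epicardial markers were split, with 5 higher and 4 lower means in knockout and a median difference of 0.06. The part of blood, atrial or epicardial cells in the values below was not tested.

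Nrg1, the neuregulin ligand, was dim on every array. Its only probe set, 1456524_at, read 7.6, 17.4 and 5.0 in knockout 1, 26 and 66, against 41.0, 21.7 and 27.4 in wild-type 13, 23 and 57. The genotypes did not overlap, knockout being the lower, and all 6 readings were under the limit of 100.3. The difference was -0.83 ± 0.32 (SE), with a 95% interval from -1.53 to -0.13. In limma the p was 0.0249 unadjusted and 0.966 adjusted over all probe sets, so the gene did not pass. Non-overlap in this direction occurred in 5.39% of the 45037 probe sets. Because readings this low sit close to the constant of 16, the difference was -1.61 with a constant of 1 and -0.34 with a constant of 64. The sources used here do not say which of the many Nrg1 isoforms this probe set reads.

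Erbb4, which binds neuregulin and carries an active kinase, was also below the limit on all arrays. Probe set 1427783_at read 21.0, 49.6 and 18.9 in knockout 1, 26 and 66, against 29.3, 83.9 and 80.5 in wild-type 13, 23 and 57. Wild-type 13 lay below knockout 26, so the genotypes overlapped. The difference was -0.79 ± 0.46 (SE, 95% interval -1.82 to 0.24, limma adjusted p = 0.966). In a dissected ventricle, fewer cells of a type and less RNA of a gene per cell cannot be told apart, for this receptor or any gene below.

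Erbb2, the receptor that pairs with the others without binding a ligand itself, had similar signals in both genotypes. It read 285.0, 268.4 and 300.1 in knockout 1, 26 and 66, against 254.3, 328.2 and 235.2 in wild-type 13, 23 and 57. The knockout arrays lay inside the wild-type range. The difference was 0.07 ± 0.18 (SE), and its 95% interval allowed a change from -19.6% to 37.2%. Its sign was not stable: it was -0.02 without wild-type 57 and -0.04 with array quality weights.

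Erbb3, a neuregulin receptor whose own kinase is nearly inactive, is known in the embryonic mouse heart for its part in the cushion mesenchyme that forms the valves. Its brighter probe set, 1434606_at, read 212.9, 252.2 and 323.8 in knockout 1, 26 and 66, against 334.5, 293.7 and 302.2 in wild-type 13, 23 and 57. Knockout 1 and 26 lay below every wild-type array, and knockout 66 lay within the wild-type range. The difference over all arrays was -0.24 ± 0.18 (SE, 95% interval -0.65 to 0.16, limma adjusted p = 0.976). Without knockout 66 it was -0.39 ± 0.17, at an unadjusted p of 0.0393 and an adjusted p of 0.639 in limma. Without knockout 1 it was -0.11. The dim second probe set pointed the other way, with 14.8, 16.9 and 29.9 in knockout, against 7.0, 15.9 and 10.6 in wild-type, a difference of 0.42 ± 0.29.

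The mean over markers of cushion mesenchyme and neural crest was low in knockout 1 and 26, as Erbb3 was, but differed from Erbb3 in knockout 66. Single markers differed from each other. The 10 of 11 listed markers above the limit had mean deviations from the 6-array average of -0.19, -0.21 and 0.01 in knockout 1, 26 and 66, against 0.16, 0.13 and 0.09 in wild-type 13, 23 and 57. Erbb3 itself deviated by -0.39, -0.16 and 0.18 in the knockout arrays, against 0.23, 0.05 and 0.09 in the wild-type arrays. The list mean was lower on every knockout array than on any wild-type array, while Erbb3 in knockout 66 exceeded wild-type 23 and 57. The summed signal of these markers ran from 3686 to 5241 in knockout and from 4967 to 5397 in wild-type. Among them 7 had lower and 3 had higher means in knockout, with a median difference of -0.19, and 0 passed. Snai2 (-0.76 ± 0.24) and Pdgfrb (-0.47 ± 0.17) were lower on every knockout array than on any wild-type array, as were 5.43% of all genes. Postn (-0.68 ± 0.25) and Lum (-0.61 ± 0.23) had overlapping arrays, and Msx2 (0.32 ± 0.26) was the highest of the 3 on the other side. Snai2, Twist1, Pdgfrb and Sox9 had their lowest reading in knockout 66, while Pdgfra and Msx2 had their highest reading there. The defining neural crest marker Foxd3 was below the limit. Sox10, a factor of neural crest and of Schwann cell precursors, which depend on Erbb3, read 133.0, 131.0 and 207.5 in knockout, against 112.3, 93.9 and 163.0 in wild-type (0.32 ± 0.28). The other 2 kept genes of the Schwann precursor and neuronal list, Elavl4 (-0.17 ± 0.32) and Nefl (-0.11 ± 0.21), lay on the other side of 0, and 3 of its 6 genes in the table were below the limit. The part of cushion or neural crest cells in the Erbb3 values was not tested.

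**Figure D2:**
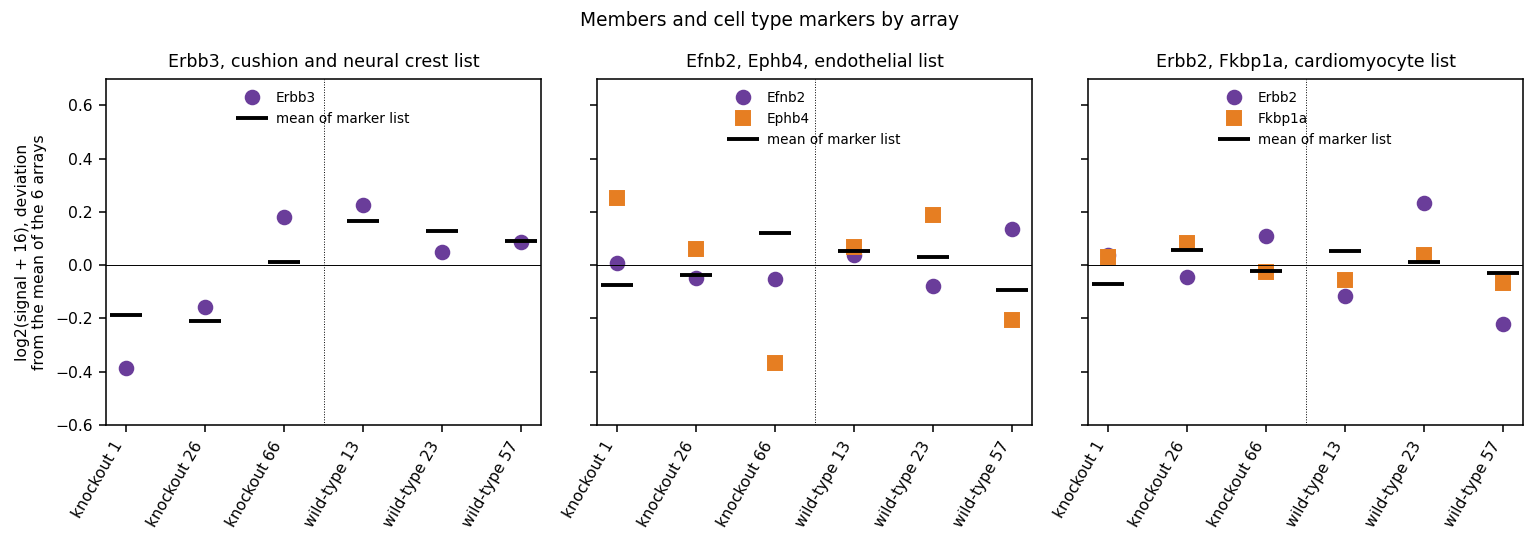
Deviation of log2(signal + 16) from the mean of the 6 arrays (vertical axis) for the brightest probe set of 5 members (points) and for the mean of a marker list (black bars), per array, with knockout arrays on the left of the dotted line. Erbb3 and the cushion and neural crest list are below 0 in knockout 1 and 26 and above 0 in all other arrays. In knockout 66 the list is at 0.01, below every wild-type array, and Erbb3 is at 0.18, within the wild-type range. Ephb4 is lowest in knockout 66, at -0.37, where the endothelial list is at 0.12.

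Efnb2, the ligand of arterial endothelium and endocardium, had the steadiest brightest probe set among the endocardial signals. Its brightest probe set, 1419638_at, read 924.1, 887.3 and 884.8 in knockout 1, 26 and 66, against 943.7, 869.3 and 1012 in wild-type 13, 23 and 57. The ranges overlapped, and the difference was -0.06 ± 0.12 (SE, 95% interval -0.33 to 0.20, limma adjusted p = 0.984). A second kept probe set, 1419639_at, read 874.3, 765.2 and 494.0 in knockout, against 785.1, 595.5 and 787.0 in wild-type. It spread over 0.80 on the log2 scale, where the first spread over 0.22 and the probe set of Ephb4 over 0.62. Knockout 66 and wild-type 23 were the lowest arrays of this second probe set. Its difference of -0.05 ± 0.21 was close to that of the first. The 2 dim probe sets gave 0.16 ± 0.41 and -0.13 ± 0.25.

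Ephb4, the receptor of ephrin-B2 on venous endothelium and endocardium, had 1 probe set, 1449845_a_at. It read 286.4, 249.0 and 180.9 in knockout 1, 26 and 66, against 249.8, 273.5 and 204.1 in wild-type 13, 23 and 57. Knockout arrays held both the highest and the lowest reading. The difference was -0.03 ± 0.21 (SE, 95% interval -0.49 to 0.42, limma adjusted p = 0.996), and it was 0.14 without knockout 66 and 0.05 without wild-type 23.

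The endothelial and endocardial markers, from the lineage that makes Nrg1, Efnb2 and Ephb4, gave no called difference either. Over 11 kept markers the median difference was 0.02, with 6 higher and 5 lower in knockout and 0 called. Their summed signal ran from 5107 to 5510 in knockout and from 5114 to 5464 in wild-type. Pecam1, an adhesion molecule of all endothelium, read 150.6, 154.4 and 113.6 in knockout, against 159.3, 188.2 and 168.5 in wild-type, a difference of -0.28 ± 0.22. The endothelial cadherin gene Cdh5 stood at 0.27 ± 0.24. Cardiomyocyte markers had a median difference of 0.03 over 12 genes.

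Fkbp1a, the gene of FKBP12, had 5 probe sets, all above the limit, and 4 of them were bright. The brightest, 1438958_x_at, read 8044, 8342 and 7730 in knockout 1, 26 and 66, against 7568, 8086 and 7509 in wild-type 13, 23 and 57. The ranges overlapped, with a difference of 0.06 ± 0.08 (SE, 95% interval -0.12 to 0.24, limma adjusted p = 0.983). This difference was -0.01 after quantile normalization. Probe set 1456196_x_at read 7396, 7740 and 7206 in knockout, against 6973, 7070 and 6406 in wild-type. Every knockout array was above every wild-type array there, by a difference of 0.13 ± 0.09 (limma adjusted p = 0.976), and this separation was lost after quantile normalization or after centring arrays on their medians. The other bright probe sets gave 0.07 ± 0.09 and 0.06 ± 0.12. The dim 1438795_x_at read 111.1, 259.4 and 296.3 in knockout, against 225.2, 263.3 and 238.8 in wild-type, so that knockout 1 alone set its difference of -0.22 ± 0.30. Probe sets ending in _x_at can hold probes shared with other transcripts.

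**Figure D3:**
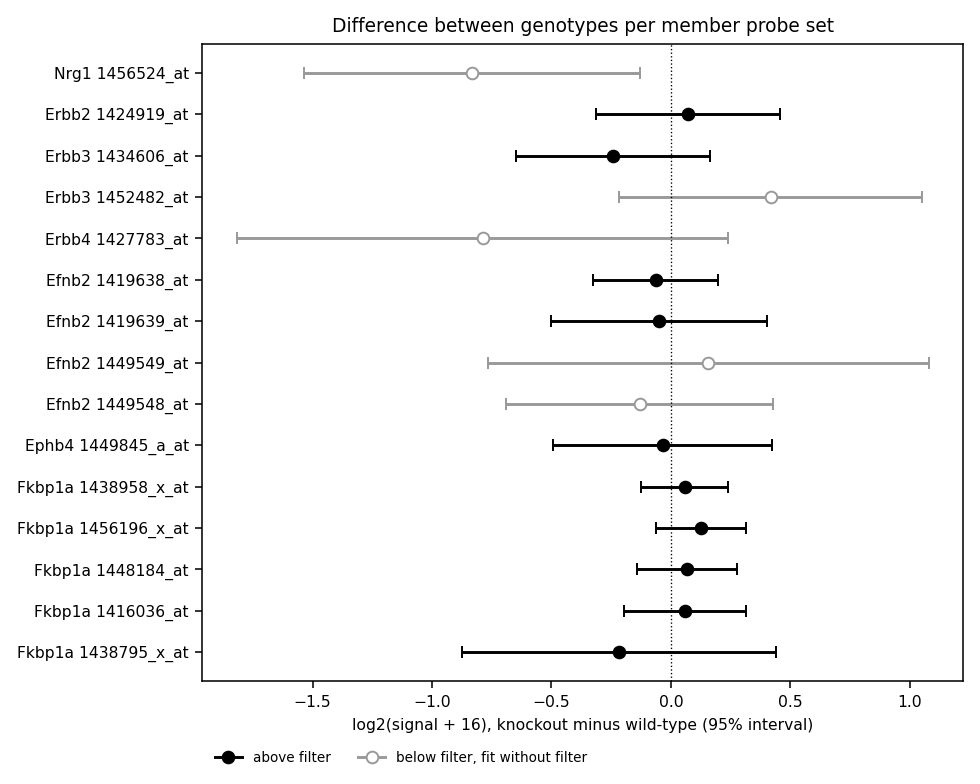
Difference between genotypes (knockout minus wild-type, log2(signal + 16), horizontal axis) for each member probe set, with its 95% interval. Filled points are above the signal limit and open grey points are below it. The intervals of all 10 probe sets above the limit include 0, and among the others only that of Nrg1, -1.53 to -0.13, does not.

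Leaving out knockout 66 raised the number of separated member probe sets to 4 of 10: Erbb3 1434606_at, lower in knockout, and Fkbp1a 1456196_x_at, 1448184_at and 1416036_at, higher in knockout. With 2 arrays against 3, separation was also more common in the whole table, at 24.5% of kept probe sets, and none of the members passed the adjusted threshold.

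The other genes of these pathways were described from 9 lists of ligands, receptors, relay proteins and partners. Of 144 listed genes, 132 had a probe set in the table and 119 had one above the limit, each gene being represented by its brightest. In limma 0 of the 119 passed in either direction, as did 0% of all 11648 genes, and 3 of them had an unadjusted p under 0.05, as did 551 of all genes. The knockout arrays were all above the wild-type arrays in 9 of the 119 and all below in 7, where 5.37% and 5.43% of all genes were. The median difference was -0.03 over the 119 and 0.00 over all genes.

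Among ErbB ligands outside the members, 7 of the 9 in the table were kept, with 3 higher and 4 lower means in knockout and a median of -0.01. Btc, a ligand of both Egfr and Erbb4, read 244.6, 262.8 and 329.4 in knockout, against 235.4, 242.2 and 232.3 in wild-type, a separated but small difference of 0.21 ± 0.17. A dimmer Btc probe set stood at -0.02. Nrg2, a relative of Nrg1, averaged 145 in knockout and 79.7 in wild-type, with overlapping arrays (0.79 ± 0.38), and is among the 3 counted as higher. Its wild-type mean lay under the limit of 100.3, so it was kept only through its knockout arrays. Hbegf, which also binds Erbb4, stood at 0.07 ± 0.18.

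Genes that process ErbB ligands or receptors included the smallest p of all the lists. Adam12, a metalloprotease that can shed ErbB ligands, read 524.0, 569.4 and 659.2 in knockout, against 444.3, 434.4 and 350.6 in wild-type, with no overlap. Its difference was 0.50 ± 0.16 at an unadjusted p of 0.00863 and an adjusted p of 0.973 in limma, and a second, dimmer kept probe set gave -0.15. Adam17, the main sheddase of several ErbB ligands, stood at 0.26 ± 0.16, and Adam19, a protease reported to cleave neuregulin, at -0.10 ± 0.17. Egfr, the founding ErbB receptor, stood at 0.28 ± 0.16. The list had 11 kept genes and a median of 0.07.

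The intracellular relay of ErbB receptors had 22 kept genes, 7 higher and 15 lower in knockout, with a median of -0.06 and none called. The Ras exchange factor gene Sos1 (0.14 ± 0.12) and the kinase gene Braf (0.25 ± 0.14) had all knockout arrays above wild-type, and the Ras gene Nras (-0.08 ± 0.11) had all below. Other kept probe sets of Sos1, Braf and Nras included ones of opposite sign. The adaptor gene Gab1, which couples these receptors to downstream kinases, averaged 892 in knockout and 1046 in wild-type (-0.22 ± 0.13).

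Ephrin ligands other than Efnb2 were all kept, 4 higher and 3 lower. Efna1, a membrane-anchored ligand of EphA receptors, read 175.2, 178.9 and 157.8 in knockout, against 129.0, 74.3 and 68.7 in wild-type. The genotypes did not overlap. The wild-type mean of 90.7 was under the limit, so Efna1, like Nrg2, was kept only through its knockout arrays. It is nevertheless counted above among the genes separated upward and among those with an unadjusted p under 0.05 in limma. The difference was 0.85 ± 0.28, at an unadjusted p of 0.0123 and an adjusted p of 0.973 in limma. A dimmer Efna1 probe set, averaging 47.0, stood at -0.44. Efna4 was on the other side of 0, at -0.64 ± 0.30, and the B-class ligands Efnb1 and Efnb3 stood at 0.10 ± 0.22 and -0.14 ± 0.16.

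Eph receptors other than Ephb4 leaned to lower means in knockout, with 6 of 8 kept genes below 0 and a median of -0.28, none of them called. Ephb3, a receptor of B-class ephrins, read 202.9, 249.6 and 232.2 in knockout, against 285.7, 304.7 and 270.0 in wild-type (-0.31 ± 0.17). Epha7 read 390.9, 400.6 and 372.3 in knockout, against 447.3, 444.5 and 506.4 in wild-type (-0.25 ± 0.14). Both were separated between genotypes, but a second, dimmer kept probe set of Epha7 stood at -0.04 with overlapping arrays. Epha2 (-0.36 ± 0.21) and Epha4 (-0.50 ± 0.37) overlapped, and Epha5 stood at 0.26 ± 0.30. Among 16 kept intracellular partners of ephrins and their receptors the median was -0.06. The kinase gene Rock1 (0.23 ± 0.11) and the Ras regulator gene Rasa1 (0.15 ± 0.11) were separated upward and Rgs3 (-0.10 ± 0.13) downward. Rock1 and Rgs3 each had another kept probe set of opposite sign, and a second kept one of Rasa1 stood at 0.03 with overlapping arrays.

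The closest relative of Fkbp1a stood on the other side of 0. Fkbp1b encodes FKBP12.6, which binds the cardiac calcium release channel Ryr2, and its probe set 1449429_at read 126.5, 143.3 and 158.0 in knockout, against 213.2, 190.1 and 265.5 in wild-type. The genotypes did not overlap. The difference was -0.58 ± 0.21, at an unadjusted p of 0.0174 and an adjusted p of 0.973 in limma. The endoplasmic reticulum isomerase genes Fkbp7 (-0.29 ± 0.14) and Fkbp11 (0.48 ± 0.22) were also separated. A second, dimmer kept probe set of Fkbp11 stood at 0.08 with overlapping arrays. Across the 12 kept FKBP genes outside the members, 7 had higher and 5 lower means, with a median of 0.03. The 13 kept genes of the FKBP12 partner list had a median of 0.04 and lay between -0.17 and 0.13, and no gene of that list was separated.

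Other trabeculation signals, 25 kept genes, had 9 higher and 16 lower means and a median of -0.09. The cell cycle inhibitor gene Cdkn1c read 8948, 9056 and 9527 in knockout, against 8306, 8543 and 7970 in wild-type (0.15 ± 0.08). Adgrg6, an adhesion receptor reported to act in the embryonic mouse heart, read 820.9, 791.5 and 731.6 in knockout, against 904.7, 825.0 and 934.8 in wild-type (-0.18 ± 0.12). Both were separated, and neither passed. A second, dimmer kept probe set of Adgrg6 stood at -0.12 with overlapping arrays.

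**Figure D4:**
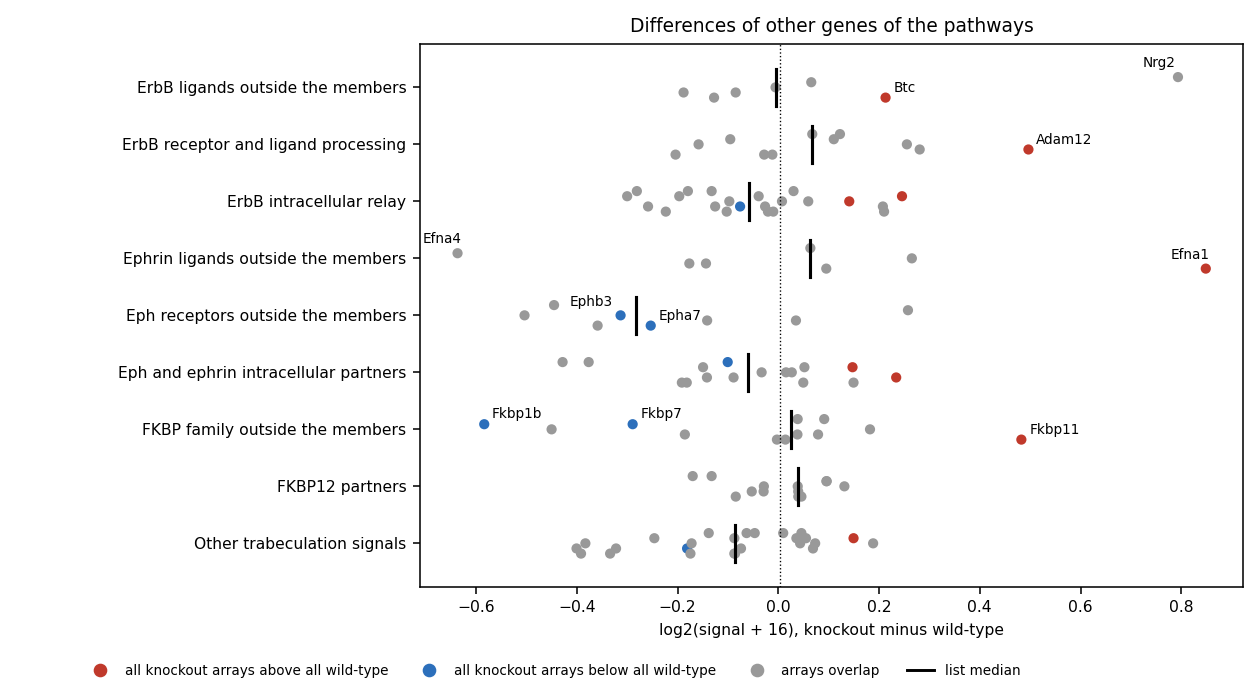
Difference between genotypes (knockout minus wild-type, log2(signal + 16), horizontal axis) of each kept gene in the 9 lists, with black bars at list medians and a dotted line at the median of all genes. Red and blue points mark genes whose knockout arrays all lie above or all below the wild-type arrays. Efna1 (0.85), kept only through its knockout arrays, and Fkbp1b (-0.58) lie near the ends. The genes of the FKBP12 partner list lie between -0.17 and 0.13.

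The genes whose signals over the 6 arrays were most like each kept member's are given as a description, by Pearson's r on the log2 scale. Ephb4 ran closest to Smad1, an effector of BMP receptors (r = 0.999), then Snhg6 (0.997) and the splicing factor gene U2af1 (0.993). All of these were lowest in knockout 66, as Ephb4 was, and 2.92% of genes had an r above 0.9 with it. Erbb3 ran closest to the RNA-binding protein gene Rbm38 (0.995), Tmem192 (0.991) and the anion exchanger gene Slc4a3 (0.991). Efnb2 ran closest to Dysf (0.986), Myo6 (0.976) and Pds5a (0.969), Erbb2 to Gfm2 (0.985), Pja2 (0.982) and Cryl1 (0.974), and Fkbp1a to Sub1 (0.985), Gpx3 (0.982) and Tspan9 (0.978). These were picked from 11132 genes over only 6 arrays that share per-array scaling. Without knockout 66 the same genes had an r of 0.973 or more, but ranked from 1 to 27.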

How the data were processed

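The deposited values are intensities on a linear scale. The submitters' processing notes name GCOS and MAS5 as the tools of the authors, while the sources used here give no versions, scaling settings or detection calls. Every array had a 2% trimmed mean of 250.0 and medians ran from 92.0 to 113.9, so signals are relative within an array. Such arrays yield no counts. Precision is limited by having 3 arrays per genotype, with a median SE of 0.20 over kept probe sets.

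The table held 45101 probe sets, including 64 controls. By the annotation of the platform, 34958 carried 1 symbol, 932 carried several and 9211 were listed with none. Of the 34958, 34754 were found in the RefSeq table of mouse genes through their Entrez identifiers, and 0 symbols changed. Coordinates are left out because the values name no genome build.

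Signals were analysed as log2(intensity + 16) in limma 3.58.1 (R 4.3.3) (lmFit, then eBayes with trend, two-sided tests) over all 22518 probe sets with a mean above the 50th percentile, with a threshold of 0.05 after Benjamini-Hochberg adjustment. Gene-level results used the brightest kept probe set and were adjusted over 11648 genes. The fit was tested on simulated data. The members and lists were chosen with earlier results of these data known. Genes outside the members were named by rule: in each list, up to 3 of smallest p among those separated between genotypes, and the 3 genes of highest r per member. The rule allowed any kept ErbB ligand, ephrin or Eph receptor to be named. Nrg2, Hbegf, Efna4, Efnb1, Efnb3, Epha2, Epha4, Epha5 and Epha6 were chosen from these after their values were seen. Egfr, Gab1, Adam17, Adam19 and single cell type markers were named outside the rule, also after their values were seen. Alternatives were pseudocounts of 1 and 64, no filter or one at the 70th percentile, quantile normalization, median centring, eBayes without a trend or robust, array quality weights, no _x_at or _s_at probe sets, a threshold of 0.1, and each array left out in turn. Python 3.11.15 and Matplotlib 3.10.9 drew the figures.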

Additional observations from a re-analysis of the deposited data

How the results depend on the processing

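No kept member probe set and no kept gene of the pathway lists passed the adjusted threshold under any of the 17 alternatives. Over the whole table, 6 of 22518 probe sets passed with array quality weights, 2 of 22516 without knockout 1, and none in any other alternative. Nrg1 and Erbb4, fitted without the filter, did not pass in the 14 alternatives run for them, and the dim probe sets of Erbb3 and Efnb2 were fitted only with no filter in the main setting. The differences of Nrg1, Erbb3, Erbb4 and Efnb2 kept their sign in every alternative that gave a value. With one array left out at a time they ran from -1.03 to -0.67 for Nrg1, -0.39 to -0.11 for Erbb3, -1.16 to -0.59 for Erbb4, -0.12 to -0.01 for Efnb2, -0.17 to 0.14 for Ephb4, -0.023 to 0.20 for Erbb2 and 0.03 to 0.09 for Fkbp1a. Sign changes were seen for Fkbp1a after quantile normalization (-0.014) and for Erbb2 with array quality weights (-0.038) or without wild-type 57 (-0.023). Ephb4 changed sign without knockout 66 (0.14) or wild-type 23 (0.05). The cause was not tested. The number of separated member probe sets, 1 of 10 in the main setting, was 2 of 15 with no filter, and 0 after quantile normalization, median centring or removal of _x_at and _s_at probe sets. With one array left out it ran from 1 to 4, with 4 without knockout 66 or without wild-type 23, where 24.5% and 17.5% of all kept probe sets were separated. No paired analysis was possible because no label ties an array to a litter. Nrg1 and Erbb4 read below the signal limit on all arrays, and the stricter filter left them out.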
